A study of Homo sapiens with 12 samples.

Results

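Long noncoding RNAs named as intergenic transcripts (LINC), as host genes of small nucleolar RNAs (SNHG) or of microRNAs (MIR host genes), together with *MALAT1*, *NEAT1* and *GAS5*, were followed in RNA-Seq counts of EZH2 mutant cells. Members were taken by symbol alone. The count table held 162 of them among 14438 genes, namely 127 LINC rows, 18 snoRNA host genes with *GAS5* counted among them, 15 MIR host genes, and *MALAT1* and *NEAT1*. Counts were compared for 156 members of 14263 genes tested, because 6 LINC rows were at 0 in every replicate of a line. These were *LINC00685*, *LINC00999*, *LINC01140*, *LINC01279*, *LINC01573* and *LINC01590*, all at 0 in EZH2 A677G and *LINC00999* in the LOF mutant too, with 2 to 36 counts per sample elsewhere. The names are older than the current annotation, and 10 LINC rows are now annotated as protein coding, among them *LINC00998* (now *SMIM30*) and *LINC00493* (now *SMIM26*), which encode small proteins.

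The cells were HEK293T, a human embryonic kidney line, infected with lentivirus carrying EZH2, the H3K27 methyltransferase of the PRC2 complex. The 4 lines carried EZH2 WT, the gain-of-function (GOF) mutants EZH2 Y641F or EZH2 A677G, or the loss-of-function (LOF) double mutant EZH2 H689A/F667I. Each line had 3 biological replicates, and all lines kept their own EZH2 gene, so that EZH2 WT is a line with added wild-type protein and not an untreated one. With 1 line per construct, the construct and the history of the line cannot be told apart, and in bulk RNA a change in some cells cannot be told from a change in all.

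Total counts per sample ranged from 32137700 to 44562413, and the members took between 0.211% and 0.228% of them. *EZH2*, read from the introduced and the endogenous gene together, was at 158 ± 4.32 CPM (CPM are counts scaled to library size by TMM, here with SD, n = 3) in EZH2 WT. EZH2 Y641F had 218 ± 9.61, EZH2 A677G 173 ± 8.57 and the LOF mutant 208 ± 2.03 CPM, each higher than EZH2 WT in edgeR's quasi-likelihood test. Of 7 genes fixed as HEK293T markers, all were in the table and *NEFM* and *NCAM1* were at 185 ± 7.11 and 32.3 ± 1.13 CPM in EZH2 WT. Of the 6 tested, 3 were lower in EZH2 Y641F (*NEFM*, *NCAM1* and *VIM*), 3 in EZH2 A677G (*NEFM*, *NCAM1* and *LHX1*) and 1 in the LOF mutant (*NEFM*), and their part in the results that follow was not tested. *PAX2* was at 0 throughout a line and was not tested. Of the markers of other cells, *COL1A1*, a collagen gene of fibroblasts, passed the test in no comparison.

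Long noncoding RNAs are transcribed, capped and mostly spliced and polyadenylated like messenger RNAs but serve as RNA. *MALAT1* lies in nuclear speckles, which hold splicing factors, and *NEAT1* is the scaffold of paraspeckles. The snoRNA host genes carry snoRNAs in their introns, which guide modification of ribosomal RNA, while their spliced exons are often degraded in the cytoplasm by nonsense-mediated decay. MIR host genes are the primary transcripts from which the microRNA processing complex cuts hairpins. The library kit selected polyadenylated RNA, so the counts are of host transcripts, and mature snoRNAs and microRNAs were not measured. Any form of *MALAT1* or *NEAT1* without a poly(A) tail would be counted poorly too.

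The members that the results turn on differ in the regions from which they start. In RefSeq (GRCh38.p14), promoter windows from 250 bases before to 50 bases after a start were found for 123 members. At least 20 CpG were present in 66 of these (53.7%), against 41.2% of all 35116 promoters of this length, with a median of 22 CpG against 14. The 123 members all have counts here, while the 35116 promoters were not limited to genes of the count table, so the sets are unlike. Windows follow for *LINC00693* and *LINC00963*, which were lower in both GOF mutants, and for *MALAT1*, which was higher in both, each 5′ to 3′ with CpG in capitals. *LINC00693* has 24 CpG in its window (chr3:28575028-28575327, plus strand), *LINC00963* 43 (chr9:129488410-129488709, plus strand) and *MALAT1* 37 (chr11:65497488-65497787, plus strand).
LINC00693: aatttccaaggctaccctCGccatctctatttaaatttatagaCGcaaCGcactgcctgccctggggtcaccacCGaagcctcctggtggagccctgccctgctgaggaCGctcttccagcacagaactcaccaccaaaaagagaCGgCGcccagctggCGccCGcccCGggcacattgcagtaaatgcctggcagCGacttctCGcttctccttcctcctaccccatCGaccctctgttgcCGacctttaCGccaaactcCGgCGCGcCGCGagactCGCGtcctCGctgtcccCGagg
LINC00963: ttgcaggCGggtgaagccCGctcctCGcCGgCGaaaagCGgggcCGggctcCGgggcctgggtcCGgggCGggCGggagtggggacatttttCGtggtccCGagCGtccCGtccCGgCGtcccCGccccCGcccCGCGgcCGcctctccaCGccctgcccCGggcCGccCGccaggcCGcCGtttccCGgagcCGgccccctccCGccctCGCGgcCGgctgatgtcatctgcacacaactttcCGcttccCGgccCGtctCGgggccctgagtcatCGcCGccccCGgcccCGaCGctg
MALAT1: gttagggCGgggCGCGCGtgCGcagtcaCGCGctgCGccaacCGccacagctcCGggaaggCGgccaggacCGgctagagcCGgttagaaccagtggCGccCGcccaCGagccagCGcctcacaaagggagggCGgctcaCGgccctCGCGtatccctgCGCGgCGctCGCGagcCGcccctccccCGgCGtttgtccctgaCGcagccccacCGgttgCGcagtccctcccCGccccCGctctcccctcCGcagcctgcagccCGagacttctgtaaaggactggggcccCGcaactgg
At least as many CpG as in *LINC00693* were present in 33.9% of all promoters, at least as many as in *MALAT1* in 11.3% and at least as many as in *LINC00963* in 5.0%. These counts describe the windows, and no chromatin measurement was used here. The window of *LINC00963* is that of its RefSeq start, which lies inside the GENCODE span of the gene (from 129476946).

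The question of the comparisons with EZH2 WT was which transcripts differed in lines given a GOF or LOF form of EZH2. In EZH2 Y641F, 3 members fell and 4 rose against EZH2 WT, with 0.05 as the threshold on p-values of edgeR's quasi-likelihood test after Benjamini-Hochberg adjustment over all genes tested. Lower were *LINC00693*, *LINC00963* and *LINC01057*, and higher were *MALAT1*, *NEAT1*, *LINC01605* and *LINC00470*. Of all genes tested, 5.59% were lower and 2.09% higher, and 4.49% of the members were past the threshold in either direction against 7.68% of all genes. The median log2 fold change was 0.02 over the members and 0.00 over all genes. In EZH2 A677G, 3 members were lower (*LINC00693*, *LINC00963* and *MIR17HG*) and 3 higher (*LINC00665*, *LINC00657* and *MALAT1*), while 6.48% of all genes were lower and 2.07% higher. That is 3.85% of the members in either direction against 8.55% of all genes, with median log2 fold changes of -0.03 and 0.00. In the LOF mutant no member was lower and none higher by the same test (0 and 0 of 156), where 0.161% of all genes were lower and 0.14% higher. At an unadjusted p-value under 0.05, 2 members were lower and 8 higher in the LOF mutant, where 4.1% of all genes were lower and 4.2% higher at the same threshold, and edgeR's exact test and DESeq2 called 0 as well. With the GC trend of each sample removed, the share of lower among all changed genes was 49.5% in place of 72.8% for EZH2 Y641F and 42.6% in place of 75.8% for EZH2 A677G. The comparisons share the EZH2 WT samples. The members were expressed at low levels, with a median of 1.16 in mean log2 CPM against 4.61 for all genes, and their median standard error in EZH2 Y641F was 0.213 against 0.0704 for all genes.

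**Figure D1:**
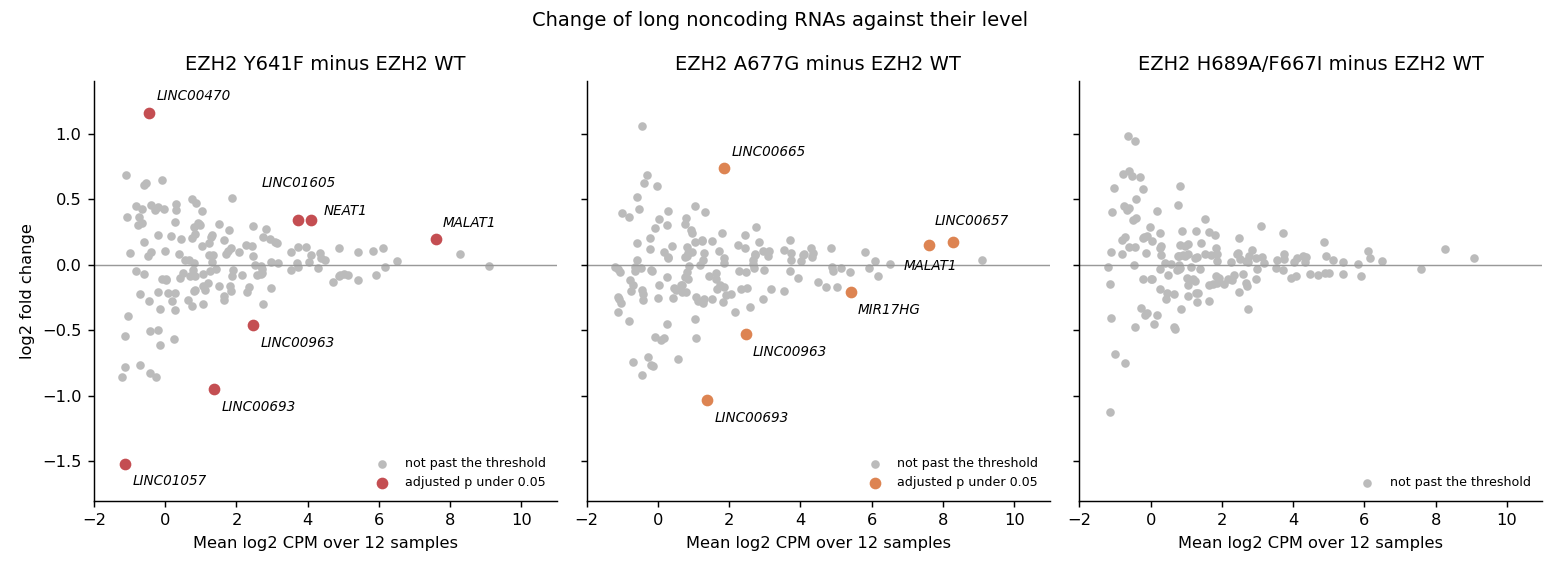
Log2 fold change of the 156 members tested (y axis) against their mean log2 CPM over 12 samples (x axis), in EZH2 Y641F, EZH2 A677G and the LOF mutant against EZH2 WT. Coloured and named points are past the threshold of 0.05 by edgeR's quasi-likelihood test: 7 for EZH2 Y641F, 6 for EZH2 A677G and 0 for the LOF mutant, with wider scatter at low levels in each panel.

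*LINC00693*, a noncoding gene on chromosome 3 of GRCh38 (28575278 to 28758337, plus strand), fell in both GOF mutants. It starts 487 bases from the start of *RBMS3*, an RNA-binding protein gene on the same strand. Its 3 replicates of EZH2 WT were at 4.28, 3.00 and 3.62 CPM, those of EZH2 Y641F at 1.71, 1.81 and 2.10, those of EZH2 A677G at 1.59, 1.87 and 1.86, and those of the LOF mutant at 3.92, 3.34 and 3.38. All GOF samples lay below all samples of EZH2 WT and of the LOF mutant, and these last groups overlapped. On the log2 scale it changed by -0.95 in EZH2 Y641F (SE 0.189, with an adjusted p of 6.98e-04 by edgeR's quasi-likelihood test) and -1.03 in EZH2 A677G (SE 0.191, with an adjusted p of 2.17e-04). In the LOF mutant it was -0.03 (SE 0.180, with an adjusted p of 0.980 by the same test). *RBMS3* itself had log2 fold changes of -0.25 with EZH2 Y641F and -0.09 with EZH2 A677G that did not pass the test (adjusted p = 0.454 and 0.839 by edgeR). No GENCODE entry matched *LINC00693*, so its position is that of RefSeq. Its span overlaps that of *RBMS3* on the same strand, so reads of the pair may not be separated.

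*LINC00963* (ENSG00000204054.14, chromosome 9, 129476946 to 129513687) also fell in both GOF mutants, by less. It was at 6.95, 7.17 and 6.27 CPM in EZH2 WT, at 6.13, 3.99 and 4.68 in EZH2 Y641F, at 5.07, 3.91 and 5.18 in EZH2 A677G and at 6.22, 5.20 and 6.30 in the LOF mutant. The GOF samples were all below EZH2 WT, although replicate 1 of EZH2 Y641F lay close to it, and the LOF mutant overlapped EZH2 WT. Its log2 fold changes came to -0.46 in EZH2 Y641F (SE 0.145, with an adjusted p of 0.0416 by edgeR's quasi-likelihood test) and -0.53 in EZH2 A677G (SE 0.145, with an adjusted p of 0.0151). In EZH2 Y641F the call was lost without EZH2 WT replicate 1 or 2 or EZH2 Y641F replicate 2 or 3 (log2 fold changes -0.44, -0.42, -0.33 and -0.42), with library totals, with only the lines compared and with the GC trend removed (-0.45, -0.46 and -0.41), and in EZH2 A677G without EZH2 WT replicate 1 or 2 or EZH2 A677G replicate 2 (-0.51, -0.49 and -0.41).

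*LINC01057*, now *SLC44A3-AS1*, lies antisense to *SLC44A3*, a choline transporter-like gene, on chromosome 1 (94613814 to 94855426, minus strand). It had between 7 and 34 counts per sample. CPM values were 0.433, 0.880 and 0.513 in EZH2 WT and 0.214, 0.184 and 0.236 in EZH2 Y641F, which lay below all other samples. EZH2 A677G (0.494, 0.393 and 0.548) and the LOF mutant (0.487, 0.433 and 0.465) overlapped EZH2 WT. Its log2 fold change in EZH2 Y641F was -1.52 (SE 0.421, with an adjusted p of 0.0181 by edgeR's quasi-likelihood test). It was no longer past the threshold without EZH2 WT replicate 2 (-1.14) or EZH2 Y641F replicate 2 (-1.43). *SLC44A3* was at -0.76 in EZH2 Y641F (adjusted p = 0.0215 by edgeR) and at -0.62 in EZH2 A677G (adjusted p = 0.0678). The sources used here do not say whether counting used strand, so reads of the antisense pair may not be separated.

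*MALAT1* (ENSG00000251562.11, chromosome 11, 65497640 to 65508073) rose by a small amount in both GOF mutants. It was at 181, 184 and 186 CPM in EZH2 WT, at 206, 192 and 231 in EZH2 Y641F, at 214, 196 and 203 in EZH2 A677G and at 173, 193 and 173 in the LOF mutant. Every GOF sample was above every EZH2 WT sample, and replicate 2 of EZH2 Y641F was also below the highest LOF sample. As a log2 fold change this came to 0.19 in EZH2 Y641F (SE 0.0483, with an adjusted p of 0.00810 by edgeR's quasi-likelihood test) and 0.15 in EZH2 A677G (SE 0.0483, with an adjusted p of 0.0415). It was -0.03 in the LOF mutant (SE 0.0486, with an adjusted p of 0.910 by the same test). In EZH2 Y641F the call was lost without EZH2 Y641F replicate 3 (0.12), and in EZH2 A677G under DESeq2, with library totals in place of TMM, with a minimum of 10 counts and without EZH2 WT replicate 1, 2 or 3 or EZH2 A677G replicate 1 or 3 (0.12 to 0.16). The annotated antisense transcript *TALAM1* overlaps *MALAT1* on the other strand, and its reads may not be separated.

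*NEAT1* (ENSG00000245532.11, chromosome 11, 65422774 to 65445540) lies upstream of *MALAT1* on the same strand. It was at 14.9, 17.2 and 15.5 CPM in EZH2 WT and at 23.8, 17.4 and 18.9 in EZH2 Y641F. EZH2 A677G was at 16.9, 17.2 and 16.3 and the LOF mutant at 16.1, 16.1 and 17.1. The EZH2 Y641F samples were all above EZH2 WT, by the most in replicate 1 and barely in replicate 2, and the other lines overlapped EZH2 WT. Its log2 fold change stood at 0.34 in EZH2 Y641F (SE 0.0886, with an adjusted p of 0.0121 by edgeR's quasi-likelihood test). Without EZH2 Y641F replicate 1 it was 0.19 (adjusted p = 0.169) and without EZH2 WT replicate 1 it was 0.29 (adjusted p = 0.0888 by edgeR), so that the call rests on these libraries. In EZH2 A677G it was 0.08 and in the LOF mutant 0.05, neither past the threshold, and the difference of EZH2 Y641F from EZH2 A677G, 0.25, was not past it either (adjusted p = 0.524 by edgeR).

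**Figure D2:**
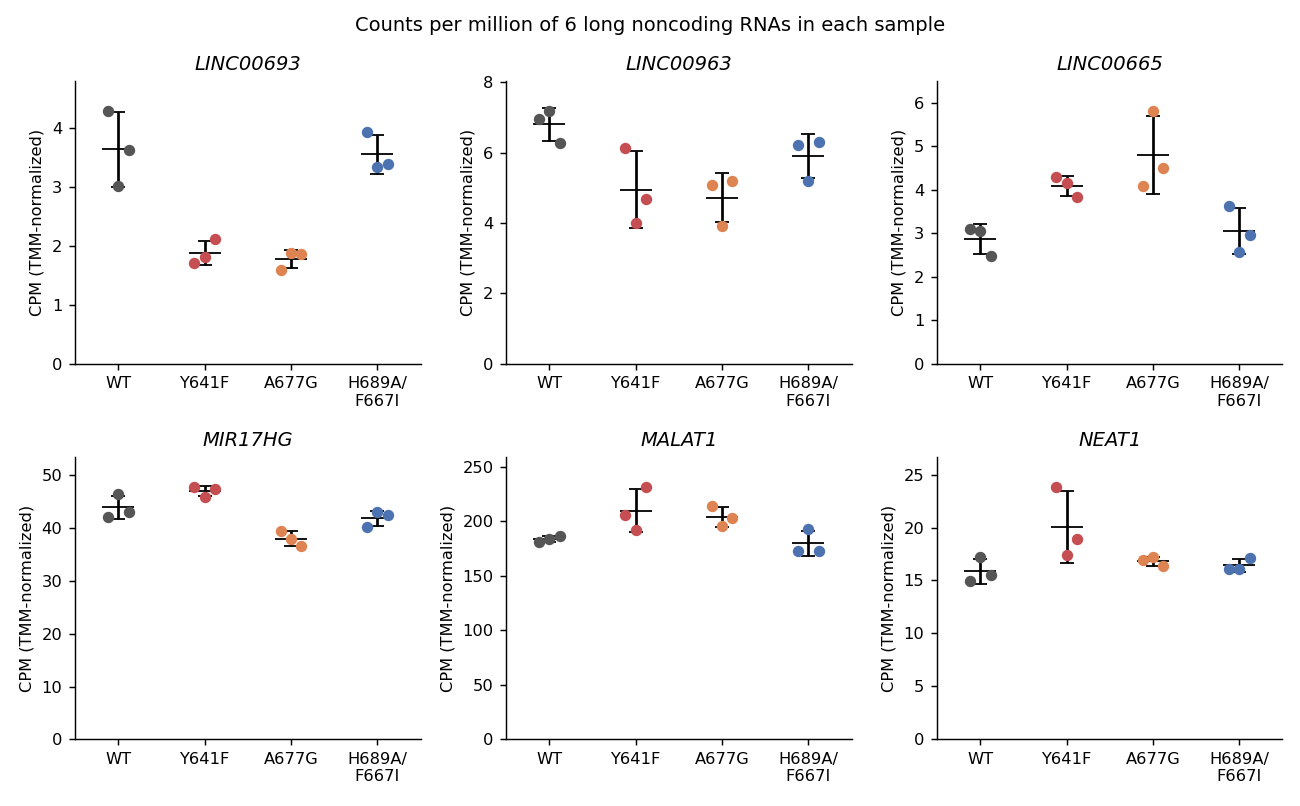
TMM-scaled CPM (y axis, from 0) of 6 long noncoding RNAs in each sample of the 4 EZH2 lines; points are replicates, horizontal lines the mean and bars the SD of 3. *LINC00693* and *LINC00963* lie lower in both GOF lines than in EZH2 WT, *LINC00665* and *MALAT1* higher, *MIR17HG* lower in EZH2 A677G, and *NEAT1* higher in EZH2 Y641F, most in replicate 1.

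*LINC01605* (chromosome 8, ENSG00000253161.7) and *LINC00470* (chromosome 18, ENSG00000132204.14) were past the threshold in EZH2 Y641F alone among the mutants, a difference between mutants that was not past the threshold for either. *LINC01605* was at 11.7, 10.9 and 11.8 CPM in EZH2 WT and at 17.8, 12.9 and 12.9 in EZH2 Y641F, and samples of every mutant lay above EZH2 WT. Its log2 fold change of 0.34 (adjusted p = 0.0254 by edgeR's quasi-likelihood test) was 0.17 without EZH2 Y641F replicate 1, 0.36 without EZH2 WT replicate 1 and 0.31 without EZH2 WT replicate 2, none past the threshold, nor was it with only the lines compared in the fit. *LINC00470* had 10 to 54 counts per sample. It was at 0.433, 0.466 and 0.302 CPM in EZH2 WT, at 0.666, 0.762 and 1.28 in EZH2 Y641F and at 0.628, 0.934 and 0.987 in EZH2 A677G. Its samples in both GOF mutants lay above EZH2 WT. The mean of the LOF mutant was also above that of EZH2 WT and nearer to the GOF means, without passing the test. Its log2 fold change reached 1.16 in EZH2 Y641F (SE 0.371, with an adjusted p of 0.0471 by edgeR), and 1.06 in EZH2 A677G (adjusted p = 0.0742), the value nearest outside the threshold there, with *MALAT1* the nearest inside. The call in EZH2 Y641F was lost with library totals (1.17), with the genes at 0 kept (1.16), with only the lines compared (1.16) and without EZH2 WT replicate 1, 2 or 3 or EZH2 Y641F replicate 3 (1.21, 1.28, 1.00 and 0.82).

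Transcripts of proteins that work with these nuclear RNAs were then examined, and protein levels were not measured here. Of all genes, 7.68%, 8.55% and 0.301% were past the threshold in EZH2 Y641F, EZH2 A677G and the LOF mutant. Transcripts of all 15 paraspeckle proteins listed, such as *SFPQ* and *NONO*, were tested. Of these, 0 were lower and 0 higher in any mutant, with log2 fold changes from -0.06 to 0.05 in EZH2 Y641F. Among transcripts of 15 nuclear speckle proteins, 1 fell, in EZH2 A677G as well as the LOF mutant, and 0 changed in EZH2 Y641F. That gene was *SRRM2*, a core scaffold of speckles, with log2 fold changes of -0.18 (adjusted p = 0.0173 by edgeR) and -0.23 (adjusted p = 0.0274). In EZH2 Y641F it was at -0.04 (adjusted p = 0.770 by edgeR).

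*LINC00665* (ENSG00000232677.11, chromosome 19, 36259540 to 36331770) rose in EZH2 A677G. It was at 3.08, 3.05 and 2.47 CPM in EZH2 WT, at 4.28, 4.15 and 3.83 in EZH2 Y641F, at 4.08, 5.80 and 4.50 in EZH2 A677G and at 3.63, 2.57 and 2.95 in the LOF mutant. All GOF samples were above all samples of EZH2 WT and of the LOF mutant. Its log2 fold change reached 0.73 in EZH2 A677G (SE 0.168, with an adjusted p of 0.00285 by edgeR's quasi-likelihood test), and 0.57 without EZH2 A677G replicate 2 (adjusted p = 0.0568). In EZH2 Y641F it was 0.50 (SE 0.170, with an adjusted p of 0.0613 by edgeR), the member just outside the threshold there, next to *LINC00470* just inside it.

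*LINC00657*, now *NORAD*, is an abundant cytoplasmic RNA that binds PUMILIO proteins (ENSG00000260032.2, chromosome 20, 36045618 to 36051018). It was at 276, 288 and 308 CPM in EZH2 WT, 272, 320 and 331 in EZH2 Y641F, 332, 337 and 316 with EZH2 A677G, while the LOF mutant had 321, 318 and 309. EZH2 A677G and the LOF mutant lay above EZH2 WT, and EZH2 Y641F overlapped it. Only the change in EZH2 A677G, 0.18 on the log2 scale, was past the threshold among the mutants (SE 0.0476, with an adjusted p of 0.0131 by edgeR's quasi-likelihood test). It was lost under DESeq2 (0.18) and without EZH2 WT replicate 1 or 2 or EZH2 A677G replicate 1 or 2 (0.14, 0.17, 0.17 and 0.16).

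Among the MIR host genes, *MIR17HG* was the one past the threshold in a mutant (6.67% of them in EZH2 A677G, against 8.55% of all genes). It is the host of the miR-17-92 cluster, known for promoting proliferation (ENSG00000215417.14, chromosome 13, 91347686 to 91397592, plus strand). RefSeq places 6 hairpins with 12 mature sequences in it, and those shown lie between chr13:91350618-91350640 (miR-17-5p) and chr13:91351361-91351382 (miR-92a-3p). They are shown 5′ to 3′, with the seed (bases 2 to 8) in capitals and matures that share a seed beside each other, since the host transcript differed between the GOF mutants.
hsa-miR-17-5p: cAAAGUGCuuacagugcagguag
hsa-miR-20a-5p: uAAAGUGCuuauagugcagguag
hsa-miR-18a-5p: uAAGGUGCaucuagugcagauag
hsa-miR-19a-3p: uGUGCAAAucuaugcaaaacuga
hsa-miR-19b-3p: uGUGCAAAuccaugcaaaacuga
hsa-miR-92a-3p: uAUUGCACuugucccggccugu
The first pair shares the seed AAAGUGC, which 8 matures of the 2545 in the RefSeq table carry, and the miR-19 pair shares GUGCAAA, which 3 carry. The opposite arms are not shown. *MIR17HG* was at 42.2, 46.5 and 43.1 CPM in EZH2 WT, at 47.8, 45.9 and 47.5 in EZH2 Y641F, at 39.5, 37.9 and 36.7 in EZH2 A677G and at 40.3, 43.0 and 42.5 in the LOF mutant. EZH2 A677G lay below every other sample, while EZH2 Y641F and the LOF mutant overlapped EZH2 WT. The log2 fold change was -0.21 in EZH2 A677G (SE 0.0531, with an adjusted p of 0.00804 by edgeR's quasi-likelihood test) and 0.10 in EZH2 Y641F (SE 0.0524, with an adjusted p of 0.306). Without EZH2 WT replicate 2 the value in EZH2 A677G was -0.17 (adjusted p = 0.0963) and without EZH2 A677G replicate 3 it was -0.19 (adjusted p = 0.0555 by edgeR).

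When the GOF mutants were compared directly, *MIR17HG* was the 1 member past the threshold (0.641% of the members against 0.0841% of all genes), and it was higher in EZH2 Y641F. Of all genes tested, 0.0701% were higher in EZH2 Y641F and 0.014% lower. The difference was 0.31 on the log2 scale (SE 0.0525, with an adjusted p of 0.00219 by edgeR's quasi-likelihood test). It passed under each of 9 alternatives and each of 6 fits without a replicate. The next gene on chromosome 13, *GPC5*, a glypican gene that begins 1029 bases past the end of *MIR17HG*, was lower than EZH2 WT in both GOF mutants, by log2 fold changes of -0.75 with EZH2 Y641F (adjusted p = 0.00574 by edgeR) and -0.84 with EZH2 A677G (adjusted p = 0.00174). In the LOF mutant *GPC5* was at 0.17.

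The other 14 MIR host genes were mostly at low levels, and none passed the test in a mutant. Their mean CPM in EZH2 WT ran from 0.474 ± 0.104 for *MIR31HG* to 13.1 ± 0.618 (SD, n = 3) for *MIR600HG*. *MIRLET7BHG* carries hairpins of the let-7 family, microRNAs that repress growth genes, and was at 1.11, 0.984 and 0.905 CPM in EZH2 WT, 0.880, 0.499 and 0.733 in EZH2 Y641F, 0.785, 0.418 and 0.548 with EZH2 A677G, while the LOF mutant had 1.14, 1.04 and 1.30. All GOF samples were below EZH2 WT and the LOF mutant, with log2 fold changes of -0.50 and -0.76 that were not past the threshold against EZH2 WT (adjusted p = 0.416 and 0.152 by edgeR). Its let-7 matures, at chr22:46112752-46112773 and chr22:46113691-46113712 on the plus strand, share the seed GAGGUAG.
hsa-let-7a-5p: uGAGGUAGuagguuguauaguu
hsa-let-7b-5p: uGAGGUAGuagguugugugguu
Exons of *MIRLET7BHG* overlap those of *PRR34* on the other strand and *PRR34-AS1* on the same strand, so part of its reads may belong to them. *MIR31HG* was at 0.568, 0.492 and 0.362 CPM in EZH2 WT and at 0.920, 0.637 and 1.30 in the LOF mutant, which lay above EZH2 WT. Its log2 fold change of 0.98 there was not past the threshold (SE 0.370, with an adjusted p of 0.405 by edgeR). *MIR99AHG*, host of MIR99A and MIRLET7C, was at 0.29, 0.14 and -0.03 in EZH2 Y641F, EZH2 A677G and the LOF mutant. *MIR22HG*, host of the tumour-suppressive miR-22, was at 0.22, 0.09 and 0.41, and *MIR210HG*, host of the hypoxia-responsive miR-210, at 0.10, -0.27 and 0.50, with SE of 0.304 or more. *MIR600HG* was at -0.02, 0.04 and 0.08. *MIR646HG* was at -0.30, -0.24 and -0.24, *MIR4697HG* at -0.31, -0.10 and 0.07, and *MIR4458HG* at -0.14 in EZH2 Y641F and -0.11 in the LOF mutant. *MIR762HG* was at 0.23, -0.11 and 0.15, *MIRLET7DHG* at -0.07, 0.17 and 0.16, and *MIR503HG* at 0.08, 0.14 and 0.01. *MIR2052HG* was at 0.17, 0.04 and 0.13 and *MIR133A1HG* at 0.09, 0.39 and -0.68. Of 19 listed genes for microRNA processing and effector proteins, 18 were tested, and 0 were lower and 0 higher in any mutant. The shares over all genes were 7.68%, 8.55% and 0.301% in EZH2 Y641F, EZH2 A677G and the LOF mutant.

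The 18 snoRNA host genes had a median standard error of 0.0827 in EZH2 Y641F, below the 0.213 over all members, and none was past the threshold in any comparison. At an unadjusted p-value under 0.05, 0 were lower and 1 higher in EZH2 Y641F, 5 lower and 0 higher in EZH2 A677G, and 0 lower and 2 higher in the LOF mutant by edgeR's quasi-likelihood test. Over all genes at the same threshold, 11.4% were lower and 7.85% higher with EZH2 Y641F, 12.3% and 8.13% with EZH2 A677G, and 4.1% and 4.2% with the LOF mutant. As log2 fold changes they spanned -0.18 to 0.31 for EZH2 Y641F, -0.36 to 0.24 for EZH2 A677G and -0.14 to 0.30 for the LOF mutant. *GAS5*, which carries 11 snoRNAs and is known to rise on growth arrest, was at 63.3, 69.5 and 65.0 CPM in EZH2 WT, 78.9, 68.5 and 68.2 in EZH2 Y641F, 69.8, 64.8 and 67.1 with EZH2 A677G, while the LOF mutant had 73.2, 70.1 and 69.7. The LOF samples were all just above EZH2 WT, replicate 1 of EZH2 Y641F stood above its other replicates, and the GOF mutants overlapped EZH2 WT. The log2 fold changes were 0.12 (adjusted p = 0.149 by edgeR), 0.03 and 0.11, and with the GC trend of each sample removed that in EZH2 Y641F was 0.15 and past the threshold (adjusted p = 0.0450). Exons of *GAS5-AS1* overlap *GAS5* on the other strand.

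The closest to the threshold among the snoRNA host genes was *SNHG3*, host of SNORA73A and SNORA73B, in EZH2 A677G. It was at 35.4, 32.6 and 34.7 CPM in EZH2 WT and at 31.1, 29.9 and 30.1 in EZH2 A677G, with no overlap, and at -0.17 on the log2 scale (SE 0.0618, with an adjusted p of 0.0809 by edgeR's quasi-likelihood test). With only the lines compared in the fit it passed the threshold. Also below EZH2 WT without overlap in EZH2 A677G were *SNHG4* (-0.26), *SNHG15* (-0.17) and *SNHG21* (-0.36), none past the threshold. Across all members, 20 had EZH2 A677G samples all below EZH2 WT and 14 all above, against 11 and 13 in EZH2 Y641F and 3 and 12 in the LOF mutant. Over all genes tested these shares were 14.7% below and 12.5% above with EZH2 A677G, 11.7% and 9.28% with EZH2 Y641F, and 7.14% and 7.89% with the LOF mutant. *SNHG16*, the highest member per exon length, was nearly constant, at 534, 535 and 537 CPM in EZH2 WT and between 526 and 558 in all other samples, with log2 fold changes of -0.01, 0.03 and 0.05 and standard errors of 0.0319 or 0.0320, although all samples of EZH2 A677G and of the LOF mutant lay above EZH2 WT. *SNHG5*, host of SNORD50A and SNORD50B, was at 0.03, 0.01 and 0.03, and *SNHG1*, with 8 SNORD genes, at -0.08, -0.03 and -0.09, with the LOF samples below EZH2 WT. *SNHG19*, host of SNORD60, was at 0.17, 0.07 and 0.30, the last with all LOF samples above EZH2 WT (8.76 to 10.1 against 7.14 to 8.42 CPM) and an adjusted p of 0.428 by edgeR. The remaining host genes, in the order EZH2 Y641F, EZH2 A677G and LOF, were *SNHG6* (0.09, 0.06 and 0.02), *SNHG7* (-0.08, -0.02 and 0.04), *SNHG8* (-0.08, -0.05 and 0.06) and *SNHG9* (0.31, 0.24 and 0.07). Likewise *SNHG10* was at -0.04, -0.20 and -0.03, *SNHG11* at 0.06, -0.06 and 0.20, *SNHG12* at 0.01, -0.18 and 0.01, *SNHG17* at 0.01, -0.05 and -0.04, and *SNHG20* at -0.07, 0.01 and -0.14.

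**Figure D3:**
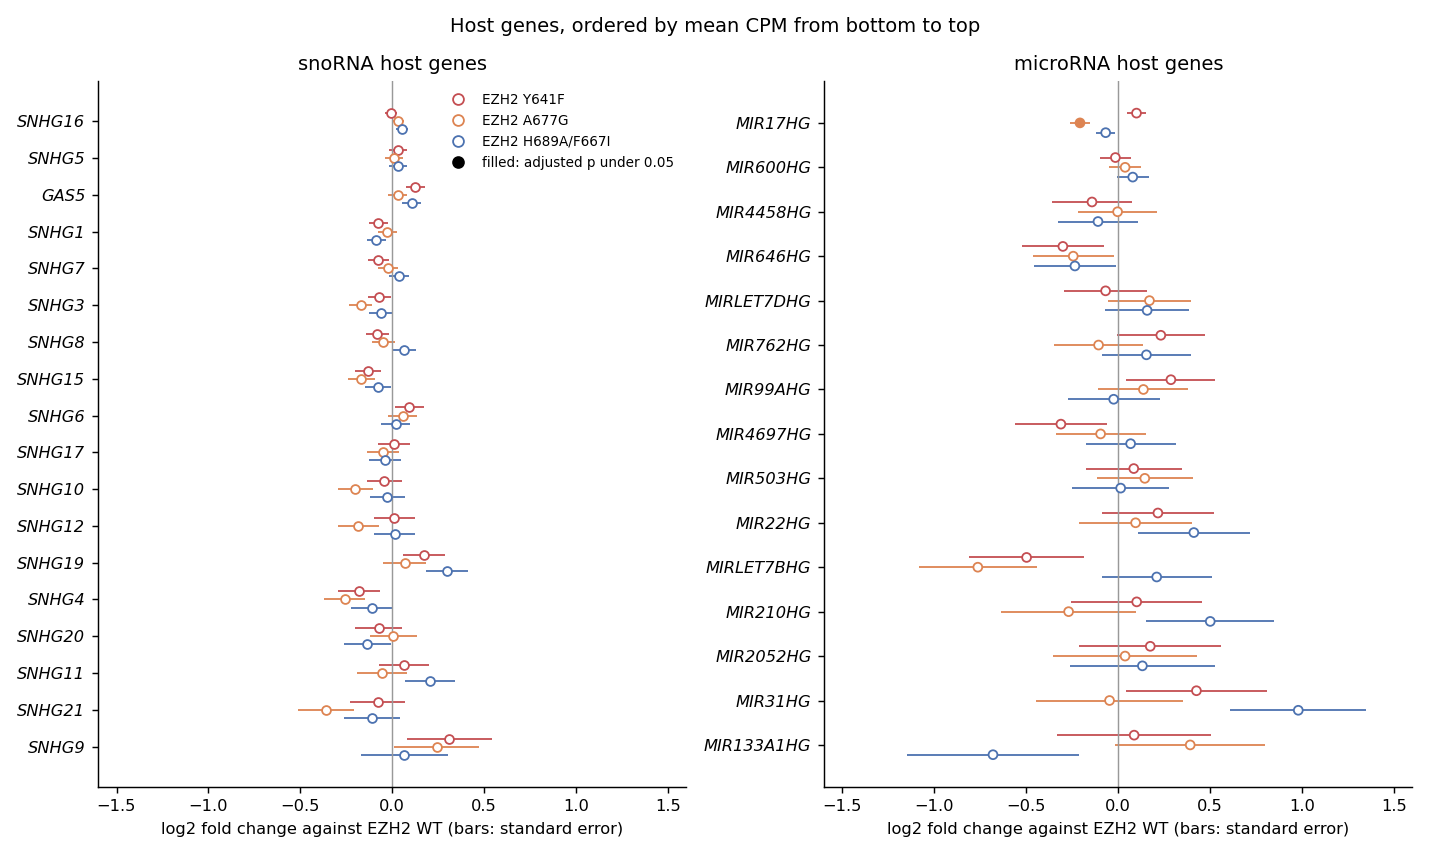
Log2 fold change against EZH2 WT (x axis, bars are the standard error) of 18 snoRNA host genes (left) and 15 MIR host genes (right), in each mutant, ordered by mean CPM. The filled point, *MIR17HG* in EZH2 A677G at -0.21, is the one past the threshold, and the snoRNA host genes lie within 0.36 of 0.

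Host genes of snoRNAs are known for starts in a run of pyrimidines, the sequence that couples messenger RNAs of ribosomal proteins to growth signals. A C followed by at least 4 pyrimidines at the annotated start was present in 4 of 15 snoRNA host genes with a RefSeq window (26.7%), against 4.07% of all promoters. Each is shown from 10 bases before the start, 5′ to 3′, with the run of pyrimidines in capitals.
SNHG4: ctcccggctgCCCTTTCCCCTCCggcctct
SNHG5: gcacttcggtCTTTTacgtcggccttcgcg
SNHG12: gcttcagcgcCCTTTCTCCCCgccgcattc
SNHG19: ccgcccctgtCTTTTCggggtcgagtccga
They lie at chr5:139274091-139274120 (plus strand), chr6:85678714-85678743 (minus strand), chr1:28581854-28581883 (minus strand) and chr16:2155339-2155368 (minus strand). The other windows do not hold these letters at the annotated base, which depends on the start that RefSeq gives. Transcripts of 18 listed nonsense-mediated decay factors and 18 listed snoRNP proteins and assembly factors were all tested. Of them, 0 were lower and 0 higher in any mutant. The shares over all genes were 7.68%, 8.55% and 0.301% in EZH2 Y641F, EZH2 A677G and the LOF mutant.

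Levels of different members were compared per exon length. Over the 149 members with at least 200 bases of annotated exon, the median was 0.462 CPM per kb, 8 members were at 10 or more and 98 were under 1. *SNHG16* was highest at 94.0 CPM per kb over all samples, followed by *LINC00657* (*NORAD*) at 57.5, *LINC00998* (*SMIM30*) at 39.2, *LINC00493* (*SMIM26*) at 26.6 and *MALAT1* at 18.6. *SNHG1* at 15.2, *GAS5* at 13.99 and *SNHG19* at 13.9 CPM per kb lay close together, and the line means of *GAS5* and *SNHG19* crossed between lines. The median was 5.60 CPM per kb in the snoRNA host genes, 0.355 in the LINC rows and 0.315 in the MIR host genes. Exon length is the union over all annotated isoforms, so it is too long for a gene with rarely used exons.

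**Figure D4:**
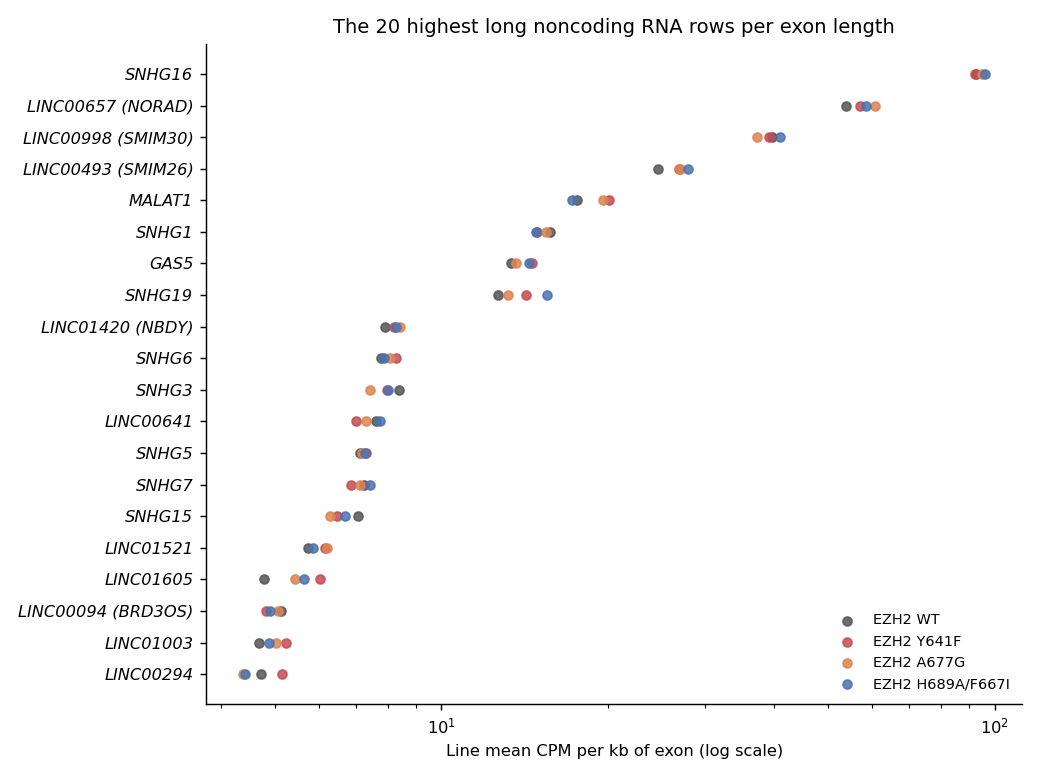
Mean CPM per kb of annotated exon (x axis, log scale) in each EZH2 line for the 20 members with the highest value over all samples. *SNHG16* is at 94.0 over all samples, and *GAS5* and *SNHG19* lie close together.

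Gain and loss of function were also set against each other, with the GOF lines averaged. Here 4 members had lower and 3 higher levels with gain than with loss (4.49% of the members), where 8.75% of all genes were lower and 3.81% higher. Lower were *LINC00693* (-0.96), *LINC01315* (-0.55), *LINC00958* (-0.66) and *MIRLET7BHG* (-0.84), and higher were *MALAT1* (0.20), *LINC00665* (0.54) and *LINC00938* (0.36), as log2 differences. *LINC00693* (adjusted p = 3.38e-05) and *MALAT1* (adjusted p = 6.73e-04 by edgeR's quasi-likelihood test) passed under every one of 8 alternatives and 9 fits without a replicate. Those that remove the GC trend could not adjust *LINC00693*. *LINC00665* (adjusted p = 0.0110) did not pass without LOF replicate 2 (0.43) or 3 (0.52).

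The other members past the threshold here, *LINC00938*, *LINC01315*, *LINC00958* and *MIRLET7BHG*, did not pass against EZH2 WT in any mutant. *LINC00938* (chromosome 12) was at 6.77, 6.76 and 7.33 CPM in EZH2 WT, 6.87, 7.04 and 6.50 in EZH2 Y641F, and 7.31, 7.08 and 7.60 with EZH2 A677G. The LOF mutant had 5.74, 6.32 and 4.34 and lay below all others. It was at -0.34 against EZH2 WT in the LOF mutant, the smallest adjusted p-value of any member there (0.402 by edgeR's quasi-likelihood test). Its difference between GOF and LOF mutants (adjusted p = 0.0229) was 0.23 without LOF replicate 3 and 0.40 without LOF replicate 1, neither past the threshold. *LINC01315* (chromosome 22) was at 2.44, 3.16 and 3.02 CPM in EZH2 WT and 4.03, 3.31 and 3.60 in the LOF mutant, and *LINC00958* (chromosome 11) at 1.19, 1.71 and 1.93 and at 2.30, 2.16 and 2.85. Both had all LOF samples above all samples of the other lines (GOF samples of *LINC01315* at 2.00 to 3.18 and of *LINC00958* at 1.28 to 2.02 CPM). *LINC01315* (adjusted p = 0.0176) did not pass without EZH2 A677G replicate 1 or LOF replicate 1 or 3 (-0.49, -0.47 and -0.56), nor *LINC00958* (adjusted p = 0.0199 by edgeR) without EZH2 A677G replicate 2 or LOF replicate 1 or 3 (-0.60, -0.70 and -0.54). *MIRLET7BHG* (adjusted p = 0.0294 by edgeR) did not pass without EZH2 Y641F replicate 2, EZH2 A677G replicate 2 or 3, or any of the LOF replicates (-0.91 to -0.74). Among transcripts of the listed proteins, *SMARCA4* (0.11) and *TNRC6A* (0.19), a microRNA effector, were higher in the GOF than in the LOF mutants. Those of *NOP56* (-0.12), a snoRNP core protein, and *RAN* (-0.09, adjusted p = 0.0455 by edgeR) were lower. These were 1 of 15 paraspeckle genes, 1 of 18 snoRNP genes, and 1 higher and 1 lower of 18 microRNA genes. In the nuclear speckle and nonsense-mediated decay lists 0 passed, while 12.6% of all genes did in this comparison.

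Members were finally set beside the nearest protein-coding gene, which was tested for 125 of them. Counted by member, the neighbour passed the test for 9 members with EZH2 Y641F, 10 with EZH2 A677G and 3 with the LOF mutant. *POU3F3* is nearest to both *LINC01158* and *LINC01159*, so it counts for each of them in EZH2 A677G and the LOF mutant. Of all genes, 7.68%, 8.55% and 0.301% passed, and these shares are by gene and not by member. In the 24 pairs whose starts lie within 1000 bases, Pearson's r between the log2 fold changes of the pair was 0.62 for EZH2 Y641F, 0.41 for EZH2 A677G and -0.07 for the LOF mutant, and in the other 101 pairs 0.14, 0.03 and 0.16. Spearman's rho in the 24 close pairs was 0.51, 0.22 and -0.17 in the same order, and 17, 13 and 13 pairs had the same sign. These values are across genes of the same libraries and are given as a description. Exons of *SNHG3* and *RCC1*, a close pair, overlap on the same strand, so reads of a pair may be shared. Among the close pairs, *LINC00693* and *LINC00982* had the lowest member values in both GOF mutants. *LINC00982*, whose start lies 77 bases from that of *PRDM16*, a methyltransferase gene, had -0.34 with EZH2 Y641F and -0.77 with EZH2 A677G, not past the threshold, while *PRDM16* was at -0.30 (adjusted p = 0.178) and -0.47 (adjusted p = 0.0172 by edgeR's quasi-likelihood test). *LINC00998* (*SMIM30*) was at -0.02 and -0.09 in the GOF mutants, while *GPR85*, 28940 bases away, was at -1.29 and -1.27 (adjusted p = 1.46e-04 and 1.53e-04 by edgeR). The gene *POU3F3*, a neural transcription factor 104 bases from *LINC01158*, was lower in EZH2 A677G (-0.20, adjusted p = 0.00604 by edgeR) and in the LOF mutant (-0.24, adjusted p = 0.0155), where *LINC01158* was at -0.07 and 0.25. Nearest to other changed members were *NTMT1* (*LINC00963*), *ZFP14* (*LINC00665*), *FRMD8* (*NEAT1*), *PPARA* (*MIRLET7BHG*), *ARID2* (*LINC00938*) and *TEAD1* (*LINC00958*), and none of these neighbours passed the test in a mutant. *ZNF703*, the neighbour of *LINC01605*, was at -0.14 in each GOF mutant and at -0.25 in the LOF mutant (adjusted p = 0.00922 by edgeR).

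**Figure D5:**
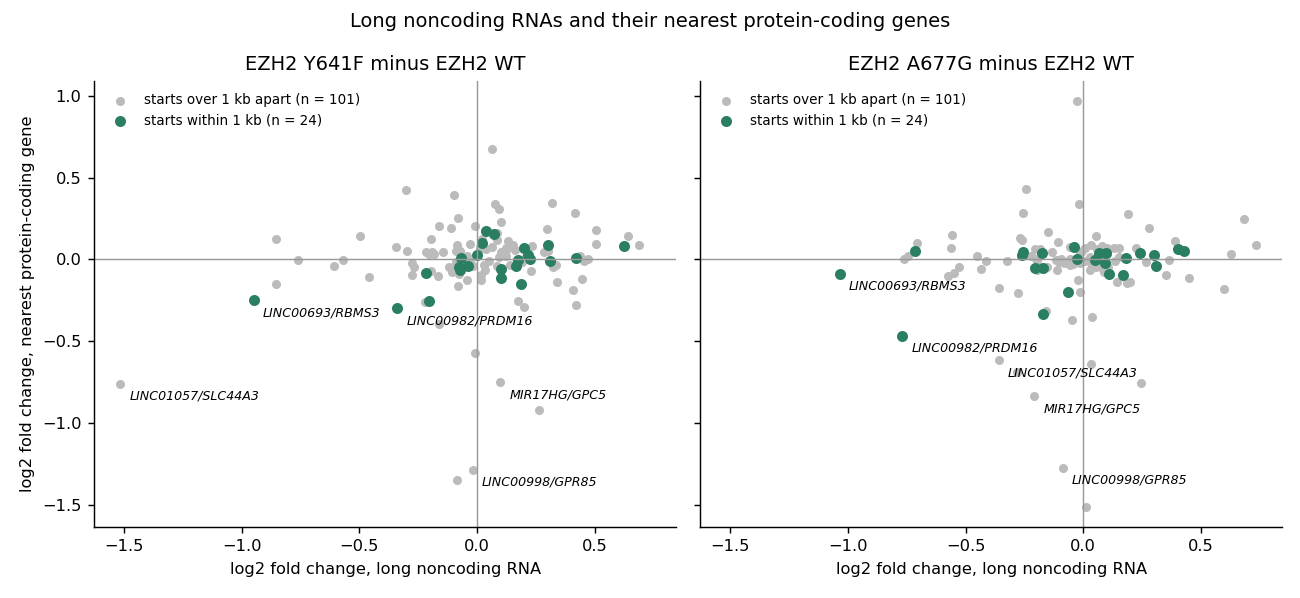
Log2 fold change of the nearest protein-coding gene (y axis) against that of the long noncoding RNA (x axis) in EZH2 Y641F and EZH2 A677G, for 24 pairs with starts within 1000 bases (green) and 101 others (grey). *GPR85* and *GPC5* lie well below 0 while *LINC00998* and *MIR17HG* lie near it, and *LINC00693* lies below -0.9 while *RBMS3* lies at -0.25 and -0.09.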

How the data were processed

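RNA of HEK293T cells from 4 EZH2 lines, 3 replicates each, was sequenced after library preparation with a stranded poly(A) kit. Per the labels, the authors used Trim Galore 0.6.5, STAR 2.7.9a, Salmon 1.2.0 and edgeR 3.16 with GRCh38. The deposited table holds raw counts by symbol, in whole numbers without normalization, and the step from Salmon estimates to these counts is not given in the sources used here.

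Genes at 0 in all replicates of a line were left out (175 of 14438, 6 of them members), since 0 genes were at 0 in 2 of 3 replicates of any line. TMM factors and edgeR's quasi-likelihood test (edgeR 4.0.16, R 4.3.3) were fitted to all 12 samples with 1 coefficient per line, in place of the study's exact test, which was an alternative. The Benjamini-Hochberg adjustment ran over 14263 genes, with 0.05 as threshold. CPM are TMM-scaled, and for log2 CPM the prior count was 2. The common biological coefficient of variation was 0.0471. Replicates are of 1 line each, so the spread does not cover differences between independently made lines.

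Symbols were matched to GENCODE and RefSeq: 116 members by name, 34 by synonym, 9 in RefSeq only, and 3 had no usable match. The GC alternative could not adjust the 12 members without GC content, *LINC00693* among them. Named were all SNHG and MIR host genes, *MALAT1*, *NEAT1* and *GAS5*, every LINC member past the threshold, members next to it, their nearest coding genes, and changed genes of 7 lists. Members just outside these that illustrate neighbours (*LINC00982*, *LINC00998*, *LINC01158*) were chosen after their values were seen. Members and lists were chosen with earlier results of these data known. Alternatives were edgeR's exact test, DESeq2 1.42.0, library totals, at least 10 counts in every sample, genes at 0 kept, only the lines compared, the replicate number as a block, the GC trend removed without and with that block, and each replicate left out. The test was checked on simulated counts. A few genes of the lists and neighbours are not reported here.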

Additional observations from a re-analysis of the deposited data

Results flagged for a closer look

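In these results the effect differed between mutants by a test of the difference itself, with edgeR's quasi-likelihood test. *MIR17HG* differed between EZH2 Y641F and EZH2 A677G by 0.31 on the log2 scale. The mean of the GOF mutants differed from the LOF mutant by -0.96 at *LINC00693*, -0.84 at *MIRLET7BHG*, -0.66 at *LINC00958*, -0.55 at *LINC01315*, 0.54 at *LINC00665*, 0.36 at *LINC00938* and 0.20 at *MALAT1*.

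Some of these members, and *MIR4697HG*, had every replicate of a GOF mutant on one side of the EZH2 WT mean and every LOF replicate on the other. For the single GOF mutant against the LOF mutant this difference was not tested, and the averaged GOF lines did not differ from the LOF mutant past the threshold at *MIR4697HG* (adjusted p = 0.479 by edgeR) or *MIR17HG* (adjusted p = 0.901). In EZH2 Y641F and the LOF mutant, the log2 fold changes were 0.10 and -0.07 at *MIR17HG*, -0.31 and 0.07 at *MIR4697HG*, and -0.50 and 0.21 at *MIRLET7BHG*. In EZH2 A677G and the LOF mutant, they were -0.76 and 0.21 at *MIRLET7BHG*, -0.26 and 0.35 at *LINC01315*, and 0.08 and -0.34 at *LINC00938*.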

How the results depend on the processing

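Counts of members past the threshold were small, so that 1 or 2 genes move them by over 1.5 times. In EZH2 Y641F, 2 were higher with only the lines compared and 7 with the GC trend removed, against 4. In EZH2 A677G, 5 were lower by the exact test and 9 with the genes at 0 kept, against 3, and 1 was higher by DESeq2, 6 with the GC trend removed and 5 with that and the block, against 3. With the genes at 0 kept, 1 was lower in the LOF mutant, 7 rose in EZH2 Y641F against EZH2 A677G and 9 were lower in the GOF than in the LOF mutants, where 0 in all replicates of a line enters as data. With the GC trend removed, with or without the block, 7 were higher in the GOF than in the LOF mutants. Leaving out 1 replicate gave between 1 and 4 lower and 1 and 5 higher members in EZH2 Y641F, 1 and 3 lower and 1 and 2 higher in EZH2 A677G, 0 in the LOF mutant, 0 lower and 1 higher between the GOF mutants, and 1 and 8 lower and 1 and 5 higher between GOF and LOF mutants. Over all genes, removing the GC trend left 49.5% of changed genes lower for EZH2 Y641F and 42.6% for EZH2 A677G, against 72.8% and 75.8%, and 36.4% against 69.6% between GOF and LOF mutants. The cause was not tested.

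*GAS5* in EZH2 A677G changed sign without EZH2 WT replicate 1, to -0.00142, the lowest of its values without 1 replicate, the highest being 0.0688. *LINC00693* passed in both GOF mutants under every alternative and every replicate left out. The alternatives that remove the GC trend could not adjust it, because no GC content was available for it. Passing them is therefore no check on GC. The exact test gives no value for the mean of both GOF mutants, and *LINC01057* has none with at least 10 counts in every sample. Samples of the same replicate number share only a number: the correlation of their deviations from the line mean ran from -0.0557 to 0.0501 over 18 pairs, against -0.0661 to 0.0725 for other pairs, and not every sample correlated best with its own number. With the replicate number as a block, 3 members were lower and 3 higher in EZH2 Y641F, where *LINC00470* was lost (adjusted p = 0.0569 by edgeR), 3 and 3 in EZH2 A677G, 0 and 0 for LOF, 0 and 1 between the GOF mutants and 4 and 3 between GOF and LOF mutants. Over all genes the block raised those lower in EZH2 Y641F than in the other GOF mutant from 2 to 6. Low counts limit the precision of many members, as 44 of 156 had a standard error over 0.3 in EZH2 Y641F and 29 one under 0.1.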
